A study of Arabidopsis thaliana with 18 samples.

Results

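Phytosulfokine is a secreted peptide hormone of plants, and 6 genes of its system were followed here in Arabidopsis thaliana seedlings: the precursor genes PSK1 (AT1G13590), PSK2 (AT2G22860), PSK3 (AT3G44735), PSK4 (AT3G49780) and PSK5 (AT5G65870), and the receptor gene PSKR1 (AT2G02220). They are 6 of the 33082 genes in the deposited table and were taken by locus identifier. The genes were chosen by measured values, because PSK2 was known to be among the largest differences between mock-treated bon123 and wild-type (WT) seedlings. The comparison of the genotypes after mock treatment is therefore a description for every gene, and PSK2 is not tested wherever mock libraries enter. All 6 genes passed the filter on low values, which kept 21727 genes.

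Each precursor is a short secreted protein that carries the phytosulfokine pentapeptide near its end. The tyrosines of the pentapeptide are sulfated by the enzyme TPST, and subtilases cut it free outside the cell. PSKR1, a receptor kinase with leucine-rich repeats, binds the peptide at the cell surface together with co-receptors of the SERK family. Phytosulfokine is known for promoting cell expansion in roots and hypocotyls and for damping immune responses to bacteria.

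RNA was sequenced from 18 libraries of whole 9-day-old Col-0 seedlings grown on vertical plates, 3 libraries in each of 6 groups. These were bon123 after ABA, bon123 after mannitol, bon123 after mock treatment, WT after ABA, WT after mannitol and WT after mock treatment. ABA (abscisic acid, the hormone of drought stress) was given at 100 µM and mannitol (an osmoticum) at 300 mM on 1/2 MS medium. The mutant is called bon123t in the labels and bon123 here. The name refers to mutations in the copine genes BON1, BON2 and BON3 of the BONZAI family, and no source used here explains the letter t. Sample labels put the treatment at 12 h, but the series text puts it at 24 h. Nothing says that the libraries of a group are separate cultures, so each p-value measures only the spread between libraries, which may be technical.

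The part of each precursor gene that encodes the hormone is shown here to identify the transcripts and to show how unlike they are outside it. The stretches below are coding bases of the RefSeq TAIR10.1 annotation, 45 bases each on the gene's own strand, with the 15 bases that encode the pentapeptide in capitals.
PSK1, chr1:4648562-4648606, plus strand: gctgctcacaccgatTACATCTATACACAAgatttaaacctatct
PSK2, chr2:9738030-9738074, plus strand: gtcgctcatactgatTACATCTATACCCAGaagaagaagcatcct
PSK3, chr3:16291388-16291432, minus strand: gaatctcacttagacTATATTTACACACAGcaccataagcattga
PSK4, chr3:18466210-18466254, plus strand: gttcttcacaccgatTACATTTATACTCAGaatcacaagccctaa
PSK5, chr5:26352011-26352055, plus strand: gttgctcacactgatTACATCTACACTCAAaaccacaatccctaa
Each precursor gene encodes the pentapeptide at 1 place, 4 to 6 codons before the stop codon, in a coding sequence of 234 to 264 bases with 2 or 3 coding exons. The 15 capital bases differ at 2 to 4 positions between any pair of the precursors. The longest identical run between the coding sequences of any pair of the 6 genes is 16 bases, between PSK4 and PSK5. PSKR1 lies at chr2:583797-587401 on the minus strand, has 1 coding exon of 3027 bases and is a far longer transcript. The deposited table lists a transcript length of 3605 bases for PSKR1 and of 654 to 1642 bases for the precursors. An annotated RNA gene, AT1G08905, overlaps PSK1, so reads of these genes may not be told apart. The other 5 genes overlap no annotated gene. The names follow RefSeq. In the deposited table the name PSK6 stands beside AT3G44735 (PSK3 here), PSK3 beside AT3G49780 (PSK4 here) and PSK4 beside AT4G37720 (PSK6 here).

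The bases in front of PSK2, PSK4 and PSK3 are shown because transcripts of PSK2 and PSK4 were higher and those of PSK3 lower in bon123. The windows are the 250 bases before the annotated gene start in TAIR10.1, and capitals mark a match to a searched motif.
PSK2, chr2:9737333-9737582, plus strand: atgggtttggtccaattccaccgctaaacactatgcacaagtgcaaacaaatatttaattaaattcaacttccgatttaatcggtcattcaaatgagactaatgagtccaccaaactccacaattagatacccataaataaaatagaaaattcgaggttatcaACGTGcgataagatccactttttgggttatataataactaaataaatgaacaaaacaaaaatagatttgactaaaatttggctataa
PSK4, chr3:18465068-18465317, plus strand: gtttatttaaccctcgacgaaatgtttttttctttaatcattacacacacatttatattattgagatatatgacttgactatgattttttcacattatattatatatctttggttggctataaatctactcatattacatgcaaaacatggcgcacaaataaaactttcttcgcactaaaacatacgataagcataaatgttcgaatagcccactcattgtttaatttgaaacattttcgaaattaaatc
PSK3, chr3:16292465-16292714, minus strand: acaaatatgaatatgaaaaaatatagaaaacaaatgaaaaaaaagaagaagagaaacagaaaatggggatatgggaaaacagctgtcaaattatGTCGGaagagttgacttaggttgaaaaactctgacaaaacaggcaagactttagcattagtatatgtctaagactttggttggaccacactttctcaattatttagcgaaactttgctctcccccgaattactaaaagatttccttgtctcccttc
The ABRE core ACGTG, searched on both strands, was found before PSK2 at 87 to 83 bases from the start, and 22.9% of 27443 windows of the same length held it. The DRE core CCGAC was found before PSK3 on the opposite strand (GTCGG as printed), at 156 to 152 bases from the start, and 12% of all windows held it. The G-box CACGTG, which contains ACGTG and occurred in 6.49% of windows, and the W-box form TTGACC, found in 12.2%, were in none of the 6 windows. The form TTGACT was not searched and is not in capitals, and it stands in each window printed above. It also stands in the windows of PSK1 and PSK5 and, on the opposite strand, in that of PSKR1. Its share of all windows was not counted. Absence of TTGACC is therefore not absence of every W-box form. These matches describe letters in a window only.

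Values are TPM, a measure per transcript length with the same total in every library, so levels can be set side by side between genes. The read depth of the libraries is unknown. BON1 averaged 0.387 to 1.27 TPM over the bon123 groups, against 10.9 to 15.5 TPM over the WT groups, and BON2 4.07 to 14.9 TPM, against 22.6 to 33.0 TPM. BON3 averaged 0.343 to 0.673 TPM over the bon123 groups, against 0.0167 to 0.13 TPM over the WT groups, and so was not lower in the libraries labelled bon123. Of all genes, 36.0% were lower in every bon123 mock library than in every WT mock library. That share was not counted after ABA or mannitol. All libraries are labelled as seedlings. Even so, 6 of 6 green-tissue markers were lower in every bon123 mock library than in every WT mock library, where 36.0% of all genes were. Their log2 fold changes of bon123 over WT were -9.95 to -5.21 after ABA and -7.32 to -3.15 after mannitol. Their summed level was 288 to 326 TPM in bon123 ABA, 1237 to 1345 TPM in bon123 mannitol and 1405 to 1811 TPM in bon123 mock, against 25060 to 29800, 17760 to 22570 and 35520 to 36620 TPM in the WT groups of the same order, and no marker was at 0. Summed levels of 8 root markers were 1460 to 1988 TPM in bon123 ABA, against 1233 to 2004 TPM in WT ABA. They were 11290 to 15320 TPM in bon123 mannitol, against 1652 to 2562 TPM in WT mannitol, and 15140 to 16490 TPM in bon123 mock, against 1923 to 2658 TPM in WT mock. Almost all of this sum was the beta-glucosidase gene PYK10. Without it the sums of the other 7 were 38.0 to 43.1 TPM in bon123 ABA, against 29.99 to 44.0 TPM in WT ABA, 108 to 149 TPM in bon123 mannitol, against 48.1 to 104 TPM in WT mannitol, and 72.1 to 95.4 TPM in bon123 mock, against 70.7 to 107 TPM in WT mock. Of the 8 root markers, 1 was higher and 3 were lower in every bon123 mock library than in every WT mock library. By that measure 44.6% of all genes were higher and 36.0% lower. The log2 fold changes of the 8 root markers ran from -1.93 to 1.53 after ABA and from -1.39 to 2.685 after mannitol. Genotype and tissue makeup cannot be told apart in these libraries, nor can fewer cells of a type and less RNA per cell, and the part of tissue makeup in the differences below was not tested. The library bon123 ABA replicate 3 stood apart. Its median-of-ratios factor was 0.646, against 0.872 and 0.823 in replicates 1 and 2, and its genes of at least 3000 bases deviated from their mean by -0.847 (log2), against 0.134 and -0.162.

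PSK2 was at 97.1, 110 and 139 TPM in the 3 bon123 ABA libraries, at 291, 293 and 339 TPM in bon123 mannitol and at 1026, 969 and 955 TPM in bon123 mock. In WT it was at 1.64, 2.60 and 1.64 TPM after ABA, at 2.39, 3.0 and 2.61 TPM after mannitol and at 2.38, 3.73 and 1.93 TPM after mock treatment. Every bon123 library was far above every WT library, and the 3 bon123 groups did not overlap each other, while the 3 WT groups did. In bon123 mock, PSK2 ranked between position 77 and position 88 among all transcripts by level, and in the 9 WT libraries between 16321 and 18388. Its rise in mock libraries was the highest of all 21727 tested genes, with a log2 fold change of 8.09 on the log2(TPM + 1) scale. By absolute size, with falls included, it ranked 10. The ratio of mean levels was 367. These values come from the libraries by which PSK2 was chosen.

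PSK4 had a pattern like that of PSK2 at lower levels in bon123. It was at 83.1, 94.7 and 132 TPM in bon123 ABA, at 241, 256 and 281 TPM in bon123 mannitol and at 403, 425 and 457 TPM in bon123 mock. In WT it was at 3.34, 4.42 and 3.62 TPM after ABA, at 13.6, 14.5 and 12.5 TPM after mannitol and at 11.3, 13.2 and 11.7 TPM after mock treatment. The order was bon123 mock, bon123 mannitol, bon123 ABA, WT mannitol, WT mock and WT ABA, and of neighbours in that order WT mannitol and WT mock alone overlapped. In mock libraries the log2 fold change was 5.04 and the ratio of mean levels 35.6.

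PSK1 was much weaker than PSK2 and PSK4 in every bon123 group. Its levels were 8.26, 7.66 and 9.09 TPM in bon123 ABA, 47.4, 41.7 and 46.9 TPM in bon123 mannitol and 26.9, 24.3 and 26.0 TPM in bon123 mock. In WT they were 2.20, 2.62 and 1.05 TPM after ABA, 5.36, 8.04 and 2.68 TPM after mannitol and 3.88, 6.81 and 5.52 TPM after mock treatment. Mannitol-treated bon123 had the highest level, unlike for PSK2 and PSK4. Within each treatment every bon123 library lay above every WT library. The bon123 ABA libraries overlapped WT mannitol, which in turn overlapped WT mock.

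PSK3 ran the other way, with all WT libraries above all bon123 libraries. It was at 21.3, 20.0 and 31.8 TPM in bon123 ABA, at 11.5, 10.3 and 13.7 TPM in bon123 mannitol and at 9.47, 9.55 and 6.34 TPM in bon123 mock. In WT it was at 244, 217 and 217 TPM after ABA, at 99.9, 122.9 and 119 TPM after mannitol and at 55.2, 55.3 and 48.6 TPM after mock treatment. The 6 groups did not overlap, and in both genotypes the order was ABA, mannitol, mock. In mock libraries the log2 fold change was -2.53.

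PSK5 differed least between the genotypes among the 5 precursors. It was at 8.94, 8.91 and 16.0 TPM in bon123 ABA, at 32.6, 29.8 and 39.0 TPM in bon123 mannitol and at 20.6, 17.9 and 16.9 TPM in bon123 mock. In WT it was at 13.3, 15.6 and 10.8 TPM after ABA, at 29.5, 23.0 and 25.2 TPM after mannitol and at 11.6, 15.04 and 9.14 TPM after mock treatment. Both mannitol groups were above the other groups, and bon123 ABA overlapped WT ABA and WT mock.

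**Figure D1:**
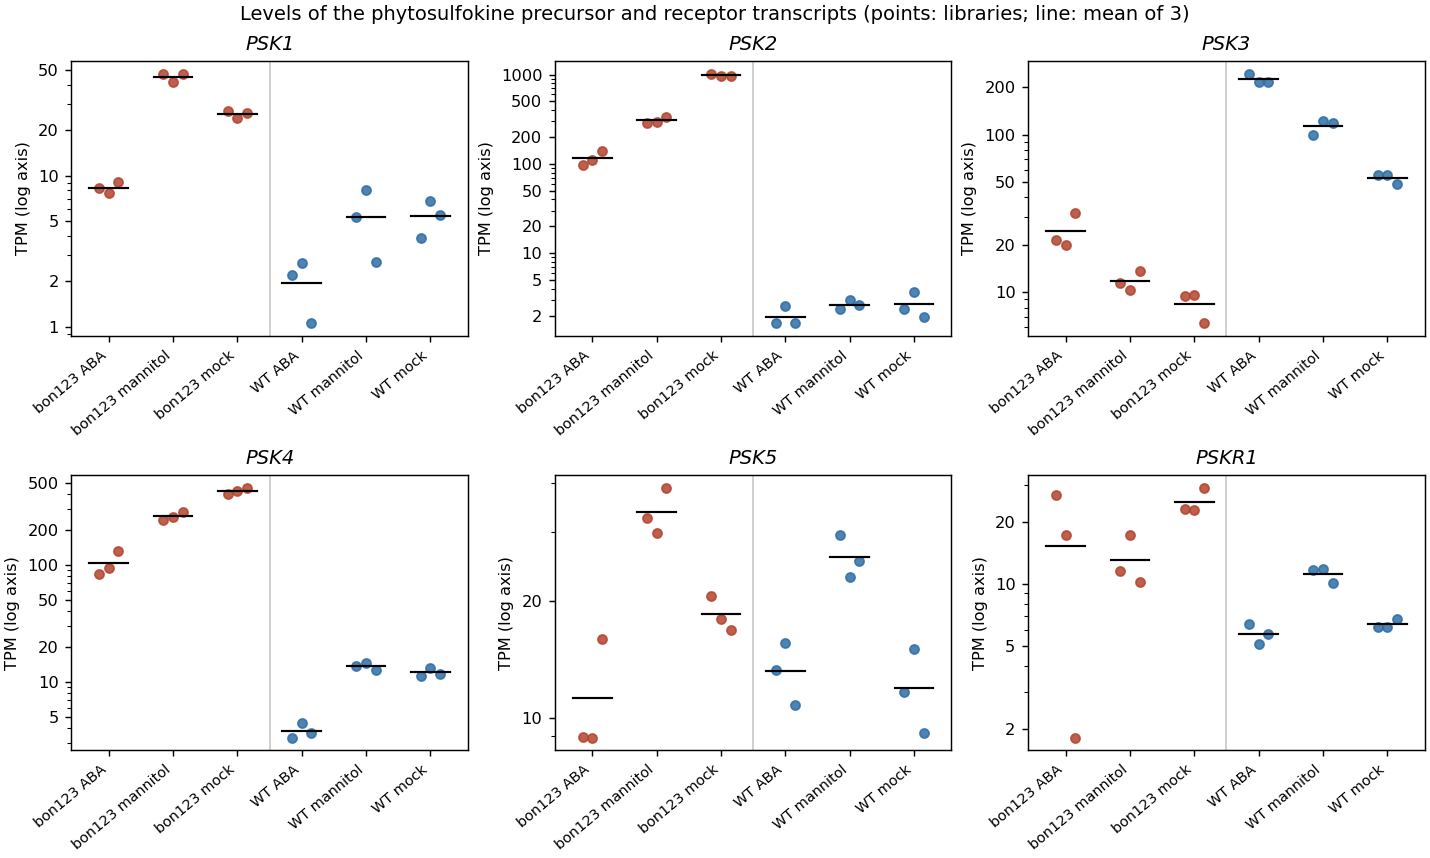
Level of each transcript in TPM (vertical log axes) in the 18 libraries, by group, with bon123 in red and WT in blue, points for libraries and lines for the mean of 3. PSK2 lies at 955 to 1026 TPM in bon123 mock and at 1.64 to 3.73 TPM in WT, PSK3 lies higher in WT, and PSKR1 is at 1.81 TPM in 1 bon123 ABA library.

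Because TPM is a measure per length, the 5 precursor transcripts could be summed. The sum averaged 263 ± 57.7 TPM (SD, n = 3 here and below) in bon123 ABA, 658 ± 53.6 TPM in bon123 mannitol and 1465 ± 19.8 TPM in bon123 mock. In WT it averaged 247 ± 15.8 TPM after ABA, 162 ± 10.4 TPM after mannitol and 85.1 ± 8.65 TPM after mock treatment. The order of treatments was thus opposite in the genotypes, with mock the highest in bon123 and the lowest in WT. The mock sums include the values by which PSK2 was chosen, so this order is a description. After ABA the sums of the genotypes overlapped, at 219 to 328 TPM in bon123 and 234 to 265 TPM in WT.

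The makeup of that sum differed in every treatment. PSK2 and PSK4 made up 44.1% and 39.2% of the precursor transcripts in bon123 ABA, 46.8% and 39.4% in bon123 mannitol and 67.2% and 29.3% in bon123 mock. In WT the main precursor transcript was PSK3, with 91.5% after ABA, 70.5% after mannitol and 62.5% after mock treatment. PSK3 made up 9.25% in bon123 ABA, 1.79% in bon123 mannitol and 0.577% in bon123 mock. PSK2 made up 0.798% in WT ABA, 1.65% in WT mannitol and 3.10% in WT mock. Shares within a library do not depend on the scaling between libraries. The shares from mock libraries include the values that chose PSK2.

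**Figure D2:**
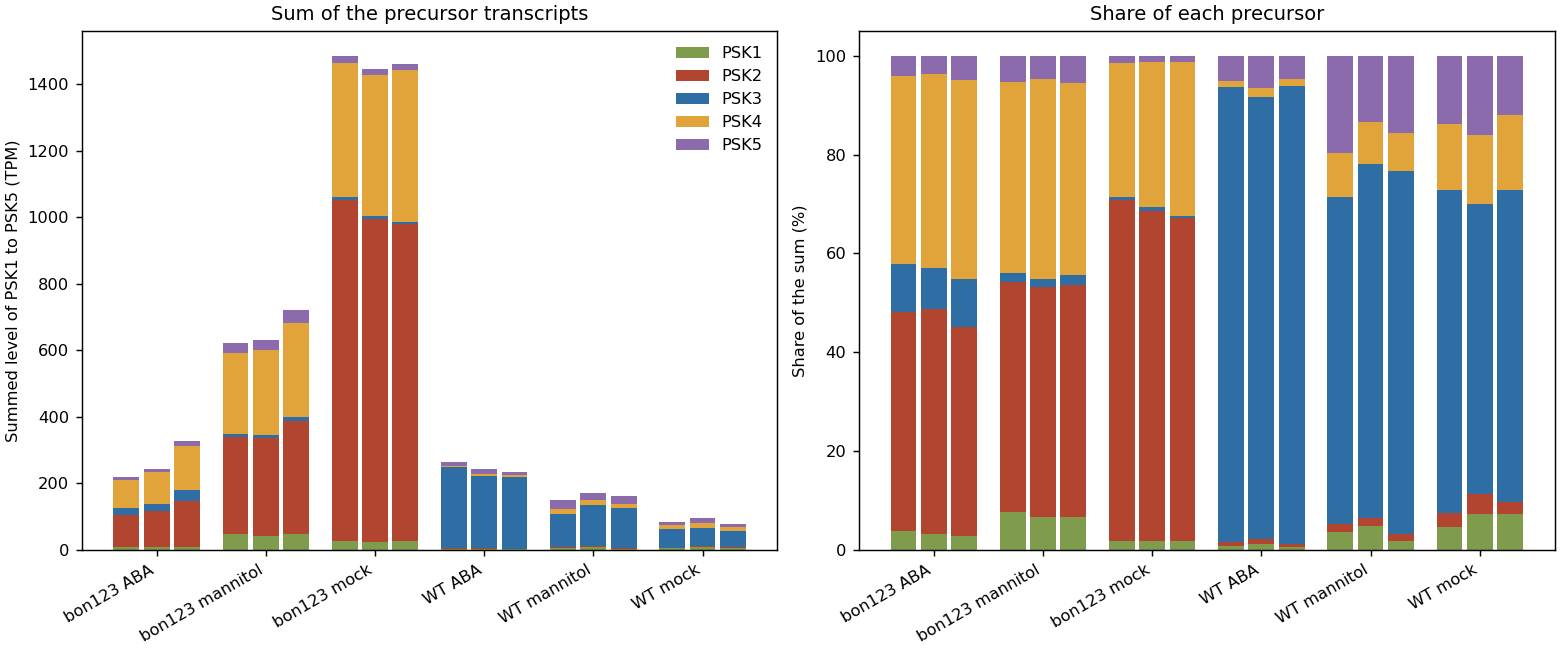
Stacked bars for the 18 libraries, grouped as labelled, with the summed level of PSK1 to PSK5 in TPM on the left and the share of each precursor in that sum in percent on the right. The sum is 1447 to 1486 TPM in bon123 mock and 76.9 to 94.1 TPM in WT mock, and PSK3 dominates the WT bars while PSK2 and PSK4 dominate the bon123 bars.

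The libraries of stressed seedlings, which the choice of PSK2 had not used, tested the difference between the genotypes. After ABA, PSK1, PSK2 and PSK4 were higher and PSK3 was lower in bon123. The test was limma on log2(TPM + 1), two-sided, over all 21727 genes with Benjamini-Hochberg adjustment and n = 3 libraries per group, and a gene is called at an adjusted p under 0.05. PSK2 was higher by 5.30 ± 0.17 (log2 fold change ± SE; adjusted p = 1.038e-13) and PSK4 by 4.42 ± 0.14 (adjusted p = 8.541e-14). The ratios of mean levels were 58.8 for PSK2 and 27.3 for PSK4. PSK1 was higher by 1.70 ± 0.27 (adjusted p = 2.315e-05). PSK3 was lower, with a log2 fold change of -3.19 ± 0.17 (adjusted p = 5.441e-11), a 9.27-fold lower mean level in bon123. The value of PSK5 was -0.25 ± 0.21 (adjusted p = 0.297), and -0.50 (adjusted p = 0.0199) without bon123 ABA replicate 3, and that of PSKR1 is given below. Of the 6 genes, 3 were called higher and 1 lower, where 28.9% of all genes were called higher and 47.5% lower. Over all genes the median was -0.31. Median-of-ratios scaling moved the median of all genes by 0.31 to 0.48 in each comparison with a treated bon123 group, by -0.15 between the mock groups and by at most 0.06 in the WT responses.

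After mannitol the same 4 genes were called in the same directions. PSK2 was higher in bon123 by 6.40 ± 0.17 (adjusted p = 2.843e-14) and PSK4 by 4.16 ± 0.14 (adjusted p = 3.155e-13). Among all genes PSK2 ranked 9 from the highest rise and 71 by absolute size. PSK1 was higher by 2.96 ± 0.27 (adjusted p = 5.452e-08), and PSK3 was lower, at -3.17 ± 0.17 (adjusted p = 9.058e-11). PSK5 was not called at 0.37 ± 0.21 (adjusted p = 0.121), although every bon123 mannitol library lay above every WT mannitol library. It was called with median-of-ratios scaling, at 0.77 (adjusted p = 0.0136), and at the same 0.37 without bon123 ABA replicate 3 (adjusted p = 0.04999). With 3 of 6 genes called higher and 1 lower, 25.4% of all genes were higher and 49.3% lower, and the median of all genes was -0.36. The genotype differences of PSK1, PSK2, PSK3 and PSK4 after ABA and after mannitol were called under all 25 alternatives tried.

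In mock libraries, described and not tested, the log2 fold changes were 2.09 for PSK1, 0.61 for PSK5 and 1.80 for PSKR1, beside the values of PSK2, PSK4 and PSK3 given above. In each case the 3 bon123 libraries lay on 1 side of the 3 WT libraries, with 5 genes higher and 1 lower, where 80.6% of all genes did not overlap, 44.6% higher and 36.0% lower.

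**Figure D3:**
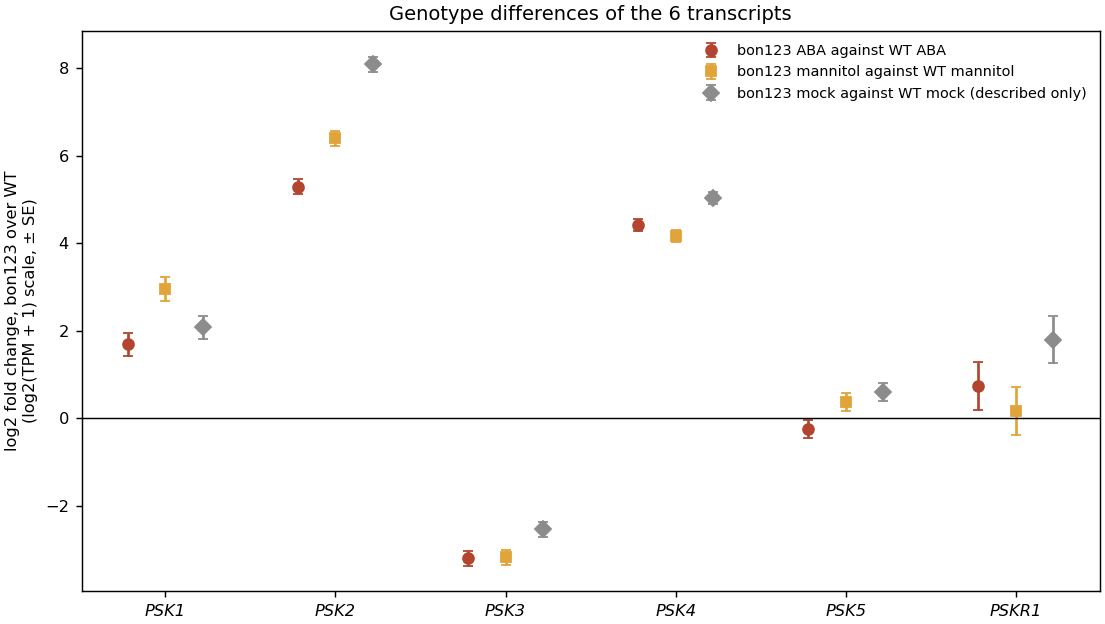
Log2 fold change of bon123 over WT on the log2(TPM + 1) scale, with bars for the standard error, after ABA, after mannitol and after mock treatment (grey, described only). PSK2 stands at 5.30, 6.40 and 8.09 and PSK3 at -3.19, -3.17 and -2.53, while PSK5 lies between -0.25 and 0.61.

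The responses to ABA were compared with mock within each genotype. In bon123, PSK3 rose and PSK1, PSK4 and PSK5 fell. PSK3 changed by 1.42 ± 0.17 (adjusted p = 1.613e-06), PSK4 by -2.07 ± 0.14 (adjusted p = 2.024e-09) and PSK1 by -1.52 ± 0.27 (adjusted p = 9.191e-05). PSK5 changed by -0.71 ± 0.21 (adjusted p = 0.00666), a call that was lost with median-of-ratios scaling (-0.06, adjusted p = 0.849) and with the length trend removed (-0.17, adjusted p = 0.433). PSK2, not tested here, stood at -3.10, a mean level 8.53-fold lower than in bon123 mock. Of the 5 tested genes, 1 was higher and 3 were lower, where 15.1% of all genes were higher and 55.5% lower with a median of -0.51.

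In WT after ABA, PSK3 rose too, by 2.07 ± 0.17 (adjusted p = 8.47e-08). PSK4 changed by -1.45 ± 0.14 (adjusted p = 5.247e-07) and PSK1 by -1.13 ± 0.27 (adjusted p = 0.00226). PSK5 was at 0.15 ± 0.21 (adjusted p = 0.602) and PSK2 at -0.30. Of the 5 tested genes, 1 was higher and 2 were lower, where 18.9% of all genes were higher and 30.6% lower. Thus PSK3 was higher and PSK1 and PSK4 were lower after ABA in both genotypes.

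The difference between these responses was tested as an interaction, in which the WT response is subtracted from the bon123 response. PSK3 had -0.65 ± 0.24 (adjusted p = 0.0314), PSK4 -0.62 ± 0.20 (adjusted p = 0.0154) and PSK5 -0.85 ± 0.30 (adjusted p = 0.0239). PSK1 was at -0.39 ± 0.38 (adjusted p = 0.406). These 3 of 5 genes were called lower, where 43% of all genes were called lower and 9.51% higher and the median of all genes was -0.44. None of the 3 was called with median-of-ratios scaling or with the length trend removed, where the values of PSK3 were -0.09 and -0.27, of PSK4 -0.01 and -0.13 and of PSK5 -0.28 and -0.40. The call of PSK3 was also lost without bon123 ABA replicate 1 or 2, bon123 mock replicate 1 or 2, WT ABA replicate 1 or WT mock replicate 3 (-0.53 to -0.60, adjusted p = 0.0652 to 0.0828). That of PSK5 was lost without bon123 ABA replicate 1 or 2, bon123 mock replicate 1, WT ABA replicate 2 or WT mock replicate 3 (-0.69 to -0.78, adjusted p = 0.0555 to 0.0664). With a pseudocount of 0.1, PSK3 (-0.58, adjusted p = 0.0686) and PSK4 (-0.43, adjusted p = 0.0949) were not called either. The value of PSK2 was -2.80 and was not tested.

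In bon123 after mannitol, the same 4 precursors were called as after ABA, with PSK1 and PSK5 now higher. PSK1 rose by 0.80 ± 0.27 (adjusted p = 0.0167), PSK5 by 0.84 ± 0.21 (adjusted p = 0.00267) and PSK3 by 0.45 ± 0.17 (adjusted p = 0.0310). The call for PSK3 was lost without bon123 mock replicate 3 (0.28, adjusted p = 0.176), bon123 mannitol replicate 1 (0.46, adjusted p = 0.0557) or bon123 mannitol replicate 3 (0.35, adjusted p = 0.129). PSK4 fell, with -0.72 ± 0.14 (adjusted p = 0.000333), and was not called with median-of-ratios scaling (-0.21, adjusted p = 0.371) or with the length trend removed (-0.38, adjusted p = 0.0538). PSK2, not tested, was at -1.68, a mean level 3.20-fold lower than in bon123 mock. With 3 of 5 tested genes higher and 1 lower, 12.6% of all genes were higher and 48.8% lower.

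In WT after mannitol, PSK3 rose by 1.09 ± 0.17 (adjusted p = 6.148e-05) and PSK5 by 1.07 ± 0.21 (adjusted p = 0.000466). PSK1 was at -0.08 ± 0.27 (adjusted p = 0.839), PSK4 at 0.16 ± 0.14 (adjusted p = 0.378) and PSK2 at 0.02. Of the 5 tested genes 2 were higher and 0 lower, where 25.5% of all genes were higher and 25% lower. Dehydration marker transcripts (RD29B, RAB18 and HAI1) summed to 52.4 to 64.5 TPM in bon123 mannitol, against 21.5 to 25.9 TPM in bon123 mock, and to 3691 to 5466 TPM in WT mannitol, against 44.7 to 116 TPM in WT mock.

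In the interaction with mannitol, PSK4 was at -0.88 ± 0.20 (adjusted p = 0.00116) and PSK3 at -0.64 ± 0.24 (adjusted p = 0.0299). These 2 of 5 genes were called lower, where 45.3% of all genes were lower and 17% higher with a median of -0.42. With the length trend removed PSK4 was not called (-0.49, adjusted p = 0.0741). PSK3 was not called with a pseudocount of 0.1 (-0.61, adjusted p = 0.0509) or with ribosomal RNA removed (-0.53, adjusted p = 0.0727). With median-of-ratios scaling neither was called, at -0.29 for PSK4 and -0.09 for PSK3. The call of PSK3 was also lost without bon123 mannitol replicate 1 or 2, bon123 mock replicate 1 or 2, WT mannitol replicate 2 or 3 or WT mock replicate 3 (-0.55 to -0.62, adjusted p = 0.0534 to 0.0763). PSK1 was at 0.87 ± 0.38 (adjusted p = 0.0544), and was called with that scaling at 1.44 (adjusted p = 0.00351). PSK5 had -0.24 ± 0.30 (adjusted p = 0.501), and PSK2 had -1.70, not tested.

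**Figure D4:**
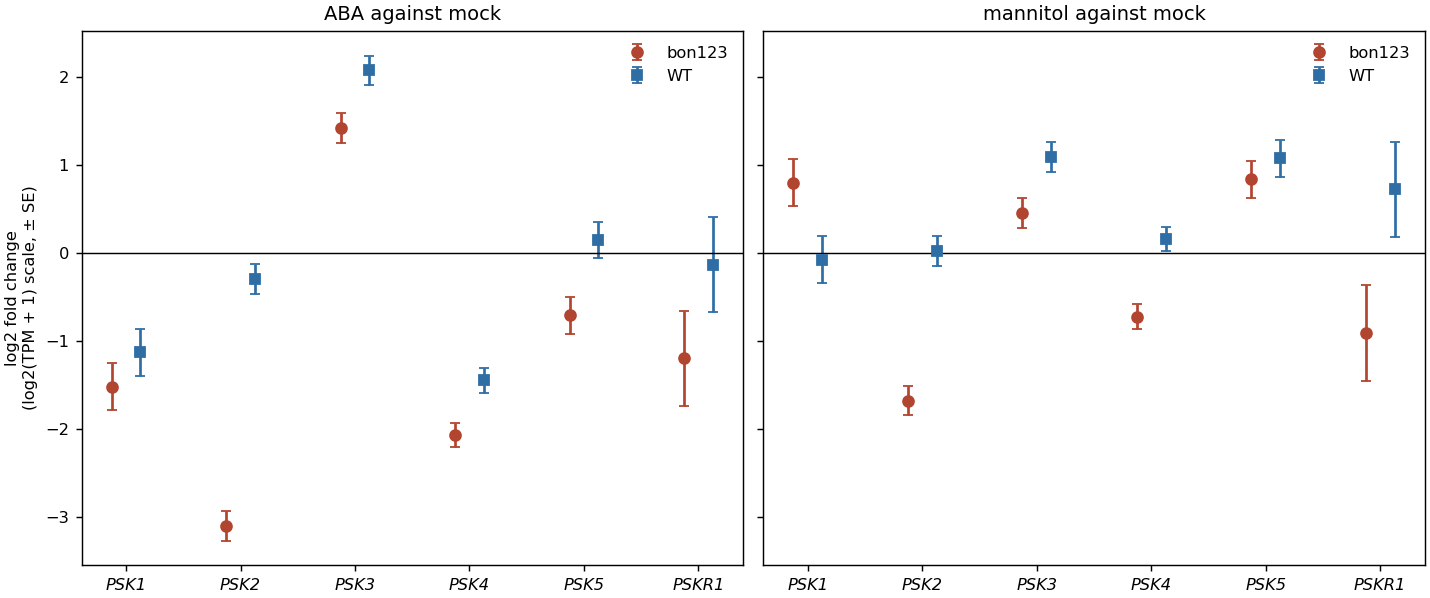
Log2 fold change of ABA over mock (left) and of mannitol over mock (right) on the log2(TPM + 1) scale, with bars for the standard error, in bon123 (red circles) and WT (blue squares). PSK3 lies above 0 in all 4 comparisons, PSK4 lies at -2.07 and -1.45 after ABA, and PSK2 (described only) lies at -3.10 and -1.68 in bon123.

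The receptor transcript PSKR1 was at 26.7, 17.2 and 1.81 TPM in bon123 ABA, at 11.6, 17.2 and 10.3 TPM in bon123 mannitol and at 22.9, 22.7 and 29.2 TPM in bon123 mock. In WT it was at 6.43, 5.11 and 5.72 TPM after ABA, at 11.7, 11.9 and 10.09 TPM after mannitol and at 6.22, 6.16 and 6.77 TPM after mock treatment. Every bon123 mock library was above every WT library, while the bon123 ABA and bon123 mannitol libraries overlapped WT. The 1.81 TPM belongs to bon123 ABA replicate 3, a library with low values for long transcripts, and it widened the standard error of PSKR1 in every comparison. The bon123 mannitol libraries read low for long transcripts too, and the cause of the 1.81 TPM was not tested. With all libraries PSKR1 was called in none of the comparisons. After ABA it was at 0.74 ± 0.54 in bon123 against WT (adjusted p = 0.224), and at 1.74 (adjusted p = 9.543e-07) without bon123 ABA replicate 3. With the length trend removed it was at 1.18 (adjusted p = 0.0142).

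After mannitol PSKR1 was at 0.17 ± 0.54 in bon123 against WT (adjusted p = 0.786), and at 1.18 (adjusted p = 0.0163) with the length trend removed. The bon123 mannitol libraries also read low for genes of at least 3000 bases, by -0.655 to -0.811 (log2), and the part of transcript length in the values of PSKR1 was not tested. The response to ABA was -1.20 ± 0.54 in bon123 (adjusted p = 0.0595) and -0.13 ± 0.54 in WT (adjusted p = 0.872). The bon123 value was called without bon123 ABA replicate 1 (-1.85, adjusted p = 0.00346) or replicate 2 (-1.54, adjusted p = 0.0305), and stood at -0.19 (adjusted p = 0.396) without replicate 3. The response to mannitol was -0.91 ± 0.54 in bon123 (adjusted p = 0.158) and 0.72 ± 0.54 in WT (adjusted p = 0.288). Without bon123 ABA replicate 3, which enters only through the shared spread, the mannitol responses were called lower in bon123 (adjusted p = 0.000341) and higher in WT (adjusted p = 0.00261), with an interaction of -1.63 (adjusted p = 3.811e-05, against 0.0751 with all libraries). With the length trend removed, the bon123 response to mannitol was 0.087 (adjusted p = 0.870), and the interaction over all alternatives reached -0.55 (adjusted p = 0.425).

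Other genes of phytosulfokine synthesis and signalling were followed in a list of 12, of which 11 passed the filter. The precursor gene PSK6 passed only through bon123 libraries, so it is left out of the counts of this list, which cover the other 10. It was listed at 0.70, 0 and 4.39 TPM in bon123 ABA, at 0 in bon123 mannitol and at 0.61, 2.5 and 3.14 TPM in bon123 mock, against 0 in all 9 WT libraries, so no fold change is given. After ABA, 4 of the 10 were higher and 3 lower in bon123 than in WT, where 28.9% of all genes were higher and 47.5% lower. The median log2 fold change of the 10 was 0.21 and that of all genes -0.31. SBT1.1, a subtilase that cuts the PSK4 precursor, passed the filter only through WT libraries, so its differences are described only. The counts and medians of this list include it, although PSK6 was left out, and are therefore descriptions too. It stood at -2.00, with 0.33 to 0.94 TPM in bon123 ABA and 4.88 to 5.38 TPM in WT ABA. The co-receptor gene SERK2 was lower at -1.98 ± 0.13 (adjusted p = 5.52e-10) and the second receptor gene, PSKR2, at -0.86 ± 0.18 (adjusted p = 0.000501). Genes called higher were the co-receptor genes BAK1 (0.82 ± 0.16, adjusted p = 0.000273) and SERK1 (0.78 ± 0.20, adjusted p = 0.00233), the proton pump gene AHA2 (1.52 ± 0.30, adjusted p = 0.000252) and the kinase gene CPK28 (0.77 ± 0.17, adjusted p = 0.000618). TPST, the sulfotransferase gene, was not called (-0.20 ± 0.10, adjusted p = 0.0931).

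After mannitol, 2 of the 10 were higher and 4 lower in bon123, with a median of -0.27, where 25.4% of all genes were higher and 49.3% lower with a median of -0.36. These shares are near those of all genes. SERK2 (-2.04 ± 0.13, adjusted p = 5.902e-10), TPST (-0.84 ± 0.10, adjusted p = 2.059e-06) and CPK28 (-0.51 ± 0.17, adjusted p = 0.0134) were lower. The other gene counted lower was SBT1.1, at -1.77 and described only. BAK1 (0.67 ± 0.16, adjusted p = 0.00168) and AHA2 (1.28 ± 0.30, adjusted p = 0.00121) were higher. In mock libraries, without a test, 6 of the 10 genes were higher in every bon123 library than in every WT library and 3 were lower, where 44.6% of all genes were higher and 36.0% lower by that measure. The median was 0.51, and that of all genes 0.13. SBT3.8, a subtilase that cuts the PSK1 precursor, did not pass the filter, at 0 in every bon123 library and at most 0.09 TPM in WT.

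Within bon123, ABA against mock gave 1 of the 10 higher and 7 lower (median -0.83), where 15.1% of all genes were higher and 55.5% lower (median -0.51). Mannitol against mock gave 0 higher and 5 lower (median -0.50), where 12.6% of all genes were higher and 48.8% lower (median -0.36). With median-of-ratios scaling, all genes split into 7176 higher and 7548 lower after ABA and 6360 higher and 6065 lower after mannitol. SERK2 was lower after both, at -1.46 ± 0.13 (adjusted p = 3.841e-08) after ABA and -1.29 ± 0.13 (adjusted p = 5.048e-07) after mannitol. In WT, ABA gave 0 higher and 2 lower (median -0.16), where 18.9% and 30.6% of all genes were called, with AHA2 at -1.42 ± 0.30 (adjusted p = 0.00104). Mannitol gave 3 higher and 0 lower (median 0.19), where 25.5% and 25% of all genes were called, with CNGC17, a channel gene, at 0.67 ± 0.21 (adjusted p = 0.0162). The call of CNGC17 was lost without WT mock replicate 2 (0.62, adjusted p = 0.0521).

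A second list held 9 genes of other tyrosine-sulfated peptides and their receptors, of which 8 passed the filter, GSO2 only through bon123 libraries. After ABA 4 were higher and 1 lower in bon123 than in WT (median 0.82), where 28.9% of all genes were higher and 47.5% lower (median -0.31). After mannitol 6 were higher and 1 lower (median 0.78), where 25.4% of all genes were higher and 49.3% lower (median -0.36). GSO2 is among the 6 and in the list medians, but its difference is described only, because of how it passed the filter. The count of 6 is therefore a description too. PSY2, a precursor of the growth peptides of the PSY family, was lower in both, at -6.30 ± 0.34 (adjusted p = 6.211e-11) after ABA and -3.48 ± 0.34 (adjusted p = 1.412e-07) after mannitol. Its levels were 0.46 to 4.66 TPM in bon123 ABA, against 199 to 225 TPM in WT ABA. PSY3 of the same family was higher in both, at 3.32 ± 0.16 (adjusted p = 1.495e-11) and 3.70 ± 0.16 (adjusted p = 6.204e-12). CIF1, the precursor of a peptide that controls the root's Casparian strip, was higher after mannitol (2.48 ± 0.28, adjusted p = 8.38e-07), at 10.1 to 13.0 TPM in bon123 mannitol and 0.66 to 2.09 TPM in WT mannitol. CIF2 of the same family was higher too, at 2.20 after mannitol and 1.76 after ABA, where CIF1 was not called (0.21).

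**Figure D5:**
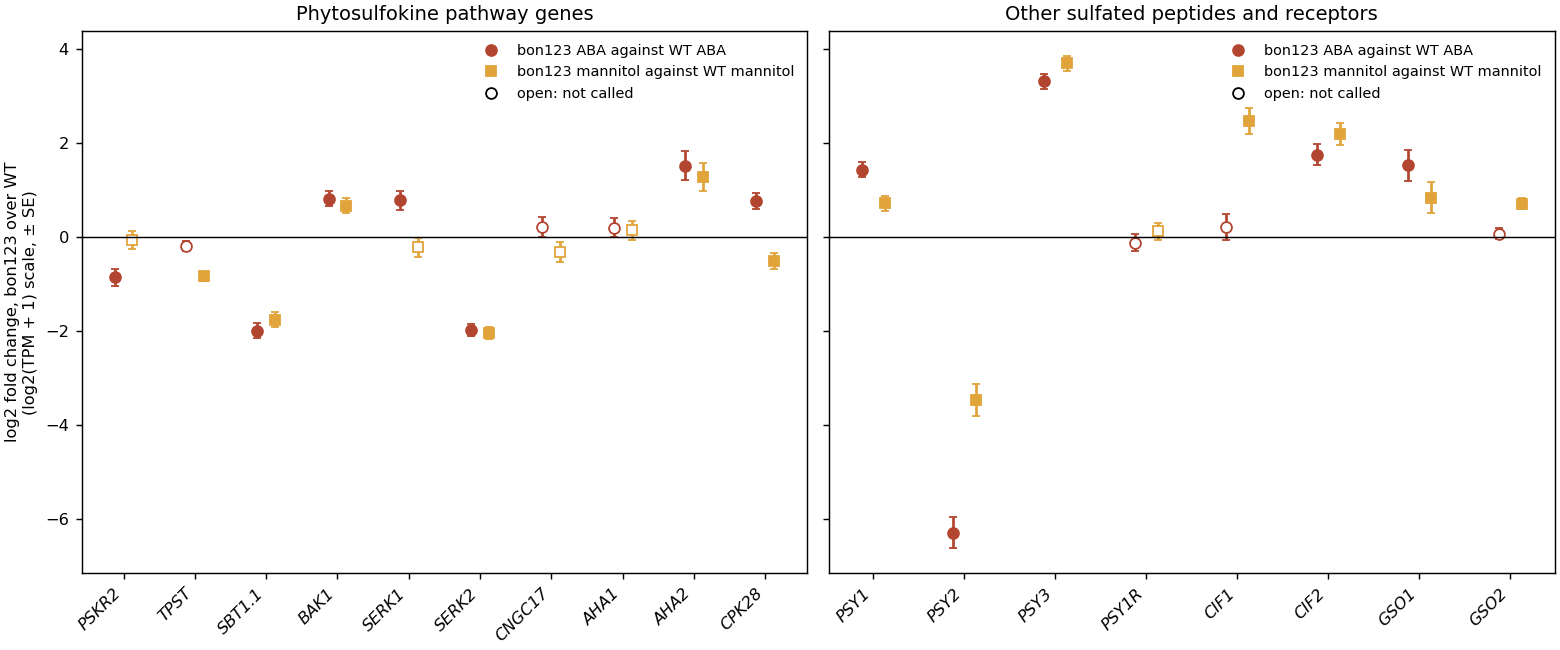
Log2 fold change of bon123 over WT after ABA (red circles) and after mannitol (yellow squares) on the log2(TPM + 1) scale, with bars for the standard error and open symbols for genes not called, for phytosulfokine pathway genes (left) and genes of other sulfated peptides (right), without PSK6. SBT1.1 lies at -2.00 and -1.77 and SERK2 at -1.98 and -2.04, PSY2 lies at -6.30 and -3.48, and PSY3 at 3.32 and 3.70. SBT1.1 and GSO2 passed the filter through libraries of a single genotype and are described only, whatever their symbols.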

How the data were processed

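The values are TPM for 18 libraries in 1 table. TPM were made by the authors and deposited with no unit in the header, and the unit was taken from the column totals of 999989 to 999999. The table also holds a deposited gene length in bases, an other quantity used only for the length trend. Per the submitters' processing notes, the build was TAIR10 and the tools were DESeq2 1.24.0, RSEM 1.3.1 and HISAT2 2.1.0, with no roles given. TPM keep no read depth, so precision rests on the spread between 3 libraries per group. No source used here says whether the libraries keep strand.

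The analysis used log2(TPM + 1) of genes that reached 1 TPM in 3 or more libraries. One limma fit (limma 3.58.1 in R 4.3.3, with trend) of the 6 group means to the 18 libraries gave 9 comparisons. Fold changes of weak genes are understated by the pseudocount. Tests were two-sided, with Benjamini-Hochberg adjustment over 21727 genes in each comparison, and were tested on simulated data. The members and lists were chosen with earlier results of these data known. Set to be named were all 6 members and, from the lists, the counts and the 3 largest called changes per comparison. The 5 genes with symbols most like each member and the nearest annotated gene on either side were also set. Not all of these are given in the text, among them some of the 3 largest changes and the counts of the second list within a genotype. Other list genes in the text were chosen after their values were seen. From the second list 3 genes were dropped because the names at their loci did not match. PSK6 was left out of the counts of the first list after its values were seen, while SBT1.1 and GSO2 stayed in the counts of their lists. Names and sequences came from RefSeq TAIR10.1, which matched 32547 identifiers. Alternatives were another pseudocount, no filter, median-of-ratios scaling, ribosomal RNA removed, length trend removed, a fit of the compared groups alone, the replicate number as a block and each library left out in turn.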

Additional observations from a re-analysis of the deposited data

Results flagged for a closer look

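The interaction term of the limma fit was called for the 10 results below, in a setting where 43% of all genes were called lower for ABA (median -0.44) and 45.3% for mannitol (median -0.42). Each is the bon123 response less the WT response on the log2(TPM + 1) scale with n = 3 libraries per group. For ABA, PSK3 had -0.65 (adjusted p = 0.0314), with responses of 1.42 in bon123 and 2.07 in WT. PSK4 had -0.62 (adjusted p = 0.0154), with -2.07 in bon123 and -1.45 in WT. PSK5 had -0.85 (adjusted p = 0.0239), with -0.71 in bon123 and 0.15 in WT. With median-of-ratios scaling these stood at -0.09, -0.01 and -0.28, none of them called. The peptide precursor gene PSY2 had -3.03 (adjusted p = 7.76e-05), the receptor gene PSY1R -1.37 (adjusted p = 0.000444) and the co-receptor gene SERK1 1.42 (adjusted p = 0.00066). For mannitol, PSK4 had -0.88 (adjusted p = 0.00116), with -0.72 in bon123 and 0.16 in WT, and PSK3 had -0.64 (adjusted p = 0.0299), with 0.45 in bon123 and 1.09 in WT. With median-of-ratios scaling they stood at -0.29 and -0.09, neither called, and PSK4 was also not called with the length trend removed (-0.49, adjusted p = 0.0741). The co-receptor gene SERK2 had -1.35 (adjusted p = 1.074e-05) and the peptide precursor gene CIF1 had 1.47 (adjusted p = 0.00464).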

How the results depend on the processing

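The genotype differences of PSK1, PSK2, PSK3 and PSK4 after ABA and after mannitol kept their direction and their call under all 25 alternatives. The interactions did not. With median-of-ratios scaling 0 members were called lower in the interaction with ABA, 0 lower and 1 higher in that with mannitol, and 0 lower in bon123 mannitol against mock. With the length trend removed these counts were 0 lower, 1 lower and 1 higher, and 0 lower. A pseudocount of 0.1 left 1 member lower in each interaction. With ribosomal RNA removed, the interaction with mannitol had 1 lower and 1 higher. A fit of the compared groups alone gave 2 members lower in bon123 mannitol against mock. Leaving out 1 library at a time gave 1 to 3 members lower in the interaction with ABA, 1 to 3 lower and 0 to 1 higher in that with mannitol, 1 to 2 lower in bon123 mannitol against mock and 1 to 2 lower in bon123 ABA against WT ABA. The higher count in each of the last 2 came without bon123 ABA replicate 3. In the interaction with ABA, 1 was called lower without bon123 mock replicate 1, bon123 ABA replicate 2 or WT mock replicate 3. In that with mannitol, 1 was called lower without bon123 mock replicate 1 or 2, bon123 mannitol replicate 1 or 2, WT mannitol replicate 2 or 3 or WT mock replicate 3, and PSK1 was called higher without WT mock replicate 1, WT ABA replicate 3 or WT mannitol replicate 2. The cause was not tested.

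Values that turned sign were not called in either form. With median-of-ratios scaling PSK5 was at 0.15 in bon123 ABA against WT ABA and at 0.34 in the interaction with mannitol, and PSK1 at 0.18 in that with ABA. With the length trend removed PSK5 was at 0.14 in bon123 ABA against WT ABA, PSKR1 at 0.087 in bon123 mannitol against mock and at 0.0038 in WT ABA against mock, and PSK1 at 0.041 in the interaction with ABA. Leaving out 1 library gave ranges of -0.033 to 0.31 for PSKR1 in bon123 mannitol against WT mannitol, -0.017 to 0.31 for PSK5 in WT ABA against mock and -0.38 to 0.27 for PSK1 in WT mannitol against mock. Among listed genes, PSY1R in bon123 mannitol against mock was not called with the length trend removed (-0.15, adjusted p = 0.144), nor CIF1 in WT mannitol against mock in a fit of the compared groups alone (-0.83, adjusted p = 0.083).

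The split of called genes depended on the scaling. Median-of-ratios scaling turned 6283 higher and 10318 lower into 8569 and 8717 in bon123 ABA against WT ABA, 5513 and 10703 into 7955 and 8327 in bon123 mannitol against WT mannitol, 3288 and 12053 into 7176 and 7548 in bon123 ABA against mock, and 2748 and 10606 into 6360 and 6065 in bon123 mannitol against mock. It turned 2067 and 9353 into 5083 and 4704 in the interaction with ABA and 3685 and 9853 into 6640 and 6113 in that with mannitol. Deviations from the group means correlated at -0.244 to 0.263 (median -0.0282) between same-numbered libraries of different groups. Between differently numbered libraries they correlated at -0.277 to 0.297 (median 0.00395). Replicate numbers thus showed no sign of pairing, which does not settle whether the samples were paired. The fit with the replicate number as a block changed no call among 42 tested member values and no count of members. Without read depth, no limit of detection can be given for the WT levels of PSK2.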

Other observations

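Over the 18 libraries, all of which share the genotype split, log2(TPM + 1) of PSK2 followed that of PSK4 with r = 0.981 (Spearman's rho 0.962) and ran against that of PSK3 with r = -0.929 (rho -0.892). PSK5 followed PSK2 with r = 0.293. These correlations are descriptions. Among 8977 genes with a symbol, those most like PSK2 were ESC, which encodes an AT-hook protein (r = 0.993), the transcription factor genes WRKY38 (0.992) and WRKY59 (0.990), the glycosyltransferase gene UGT71B5 (0.990) and the squalene epoxidase gene SQE6 (0.986). Those most like PSK4 were the glutathione transferase gene GSTU10 (r = 0.988), AR781 (0.984), the syntaxin gene SYP122 (0.984), the transcription factor gene TCP8 (0.982) and again ESC (0.982). PSK3 was most like COR15A, a cold and dehydration gene (r = 0.983), the transcription factor gene MYB47 (0.983), SVB (0.982), the dioxygenase gene ARD4 (0.979) and the squalene synthase gene SQS2 (0.979). PSK1 was most like the pyrophosphatase gene PPa5 (r = 0.984). The best matches were weaker for PSKR1, with UPL5 at r = 0.949, and for PSK5, with FP6 at r = 0.929.

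The genes next to PSK2 and PSK4 did not share the size of their differences. Beside PSK2, the noncoding RNA gene AT2G07850 averaged 2.31 TPM in bon123 ABA against 2.097 TPM in WT ABA, 19.3 TPM in bon123 mannitol against 3.22 TPM in WT mannitol and 39.4 TPM in bon123 mock against 4 TPM in WT mock. On the other side, EMB2001 averaged 7.08 TPM in bon123 ABA against 7 TPM in WT ABA. It averaged 8.34 TPM in bon123 mannitol against 6.66 TPM in WT mannitol and 10.06 TPM in bon123 mock against 13.62 TPM in WT mock. Beside PSK4, AT3G49790 averaged 30.7 TPM in bon123 ABA against 18.6 TPM in WT ABA, and 41.8 TPM in bon123 mock against 7.87 TPM in WT mock. In bon123 mannitol it averaged 18.99 TPM, against 8.25 TPM in WT mannitol. AT3G49770, on the other side, averaged 0.0167 TPM in bon123 mock and 0 in every other group.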
